A study of Mus musculus with 6 samples.

Results

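The genes of fatty acid activation and beta-oxidation were followed in mouse kidney. They were taken by symbol: the acyl-CoA synthetases of the Acsl, Acsbg, Acsm and Acss families, the Acot thioesterases, every Acad, Acox, Hadh, Eci and Decr gene, the Cpt1 and Cpt2 genes, the thiolases Acaa1 and Acaa2, and Ehhadh, Crot, Crat, Etfa, Etfb, Etfdh, Mlycd and Hsd17b4. The rule found 66 of the 22183 genes in the table, and 59 of them passed the filter on low counts. Kidney RNA was sequenced in 6 libraries. In 3 of them the mice had received the empty plasmid pcDNA3, called control here, and in the other 3 a plasmid carrying Wnt1, which encodes a secreted protein that activates beta-catenin signalling. The labels give the genotypes as control and overexpression of Wnt1, name the same batch for all libraries and state no strain, sex, age, injury or time after the plasmid, nor do they say that each library is a separate animal. The p-values therefore cover only variation among these libraries, which may be technical.

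A fatty acid is first joined to coenzyme A by a synthetase whose family depends on chain length. Long chains then enter mitochondria through the carnitine shuttle and are shortened there by repeated rounds of dehydrogenation, hydration, a second dehydrogenation and thiolytic cleavage, with electrons passed on by the electron transfer flavoprotein. Peroxisomes run a parallel chain, started by oxidases that make hydrogen peroxide, on very long and branched acids. In kidney the proximal tubule is the segment best known for using fatty acids as fuel.

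The libraries held 23585020 to 27218085 counts, and the composition factors of the TMM scaling were 0.848 to 0.879 in control and 1.118 to 1.195 in Wnt1 libraries. Scaling by library totals alone moved the median over the 14432 tested genes, as a log2 fold change, from 0.05 to 0.47, so member changes are given relative to the TMM scale unless library totals are named. Libraries numbered 3 stood apart from the rest of their group on the second principal component, at -29.0 for control and -50.1 for Wnt1 against 16.2 to 22.1, and values without both are given beside named genes whose call they change. The Wnt1 transcript gave 0 counts in 5 libraries and 1 in the other, which does not check the labels. Kidney markers were present: Umod, the uromodulin of the thick ascending limb, averaged 6025 CPM (counts scaled to library size, TMM scale) in control and 2537 CPM in Wnt1 libraries. Of the 8 thick ascending limb and distal tubule markers, 5 were called lower, and their sum ran from 8332 to 8972 CPM in control and from 2767 to 4369 CPM in Wnt1 libraries. The 14 proximal tubule markers summed to 16204 to 16976 CPM in control and 4135 to 5303 CPM in Wnt1 libraries, and 13 of them were called lower. All 8 macrophage markers and all 7 fibroblast and mural markers were called higher. Also called lower were 4 of 6 endothelium, 3 of 5 podocyte and 3 of 8 collecting duct markers, with none higher. Of 5 tested lymphocyte markers, 4 were called higher. Among all tested genes 18.7% were called lower and 22.4% higher. In whole kidney, fewer cells of a type and less RNA per cell cannot be told apart, and the part of these marker shifts in the results was not tested. Of 9 fat cell markers, Lep and Ucp1 reached at most 0.0443 CPM in any library. Cfd stood at 5.14 CPM in control replicate 2 and 4.29 CPM in Wnt1 replicate 3 against at most 0.228 CPM elsewhere, and Adipoq at 0.709 and 0.531 CPM in these libraries against at most 0.0456 CPM; Plin1, Cidec and Retn were also highest in both. Lpl and Pck1, which fat cells share with other cells, averaged 399 and 1405 CPM in control and 59.3 and 732 CPM in Wnt1 libraries and were called lower. The 9 markers summed to 1486 to 1999 CPM in control and 701 to 903 CPM in Wnt1 libraries. Lpl and Pck1 made up nearly all of this sum, so it does not measure fat cells.

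Most of the fatty acid genes had less RNA after the Wnt1 plasmid. Of the 59 tested, 46 were called lower and 6 higher at an edgeR adjusted p under 0.05, where 18.7% of all tested genes were called lower and 22.4% higher. Their median log2 fold change was -0.90, against 0.05 for all tested genes. In 47 members every Wnt1 library lay below every control library, in 6 every Wnt1 library lay above, and in 6 the groups overlapped, where 25.3% of all tested genes lay below and 28.2% above. Summed over all members, CPM ran from 18478 to 19974 in control and from 6313 to 7551 in Wnt1 libraries. Together they took 1.62, 1.73 and 1.64% of all counts in control libraries 1 to 3 and 0.86, 0.75 and 0.84% in Wnt1 libraries 1 to 3. These shares carry no composition factor, so they compare libraries on the scale of library totals.

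Scaled by library totals, 33 members were called lower and 6 higher, where 8.92% of all genes were called lower and 44.0% higher. The members' median was then -0.47. Leaving out both libraries numbered 3, 50 were called lower and 6 higher, against 30.4% and 32.0% of the 14563 genes then tested. Of the 52 calls, 40 held when each library was left out in turn, and 34 held under all 16 alternatives. The 12 calls lost on leaving out at least 1 library were those of Acaa1b, Acadvl, Acot1, Acot6, Acot7, Acot8, Acot9, Acsl4, Decr2, Eci2, Hadha and Hsd17b4.

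**Figure D1:**
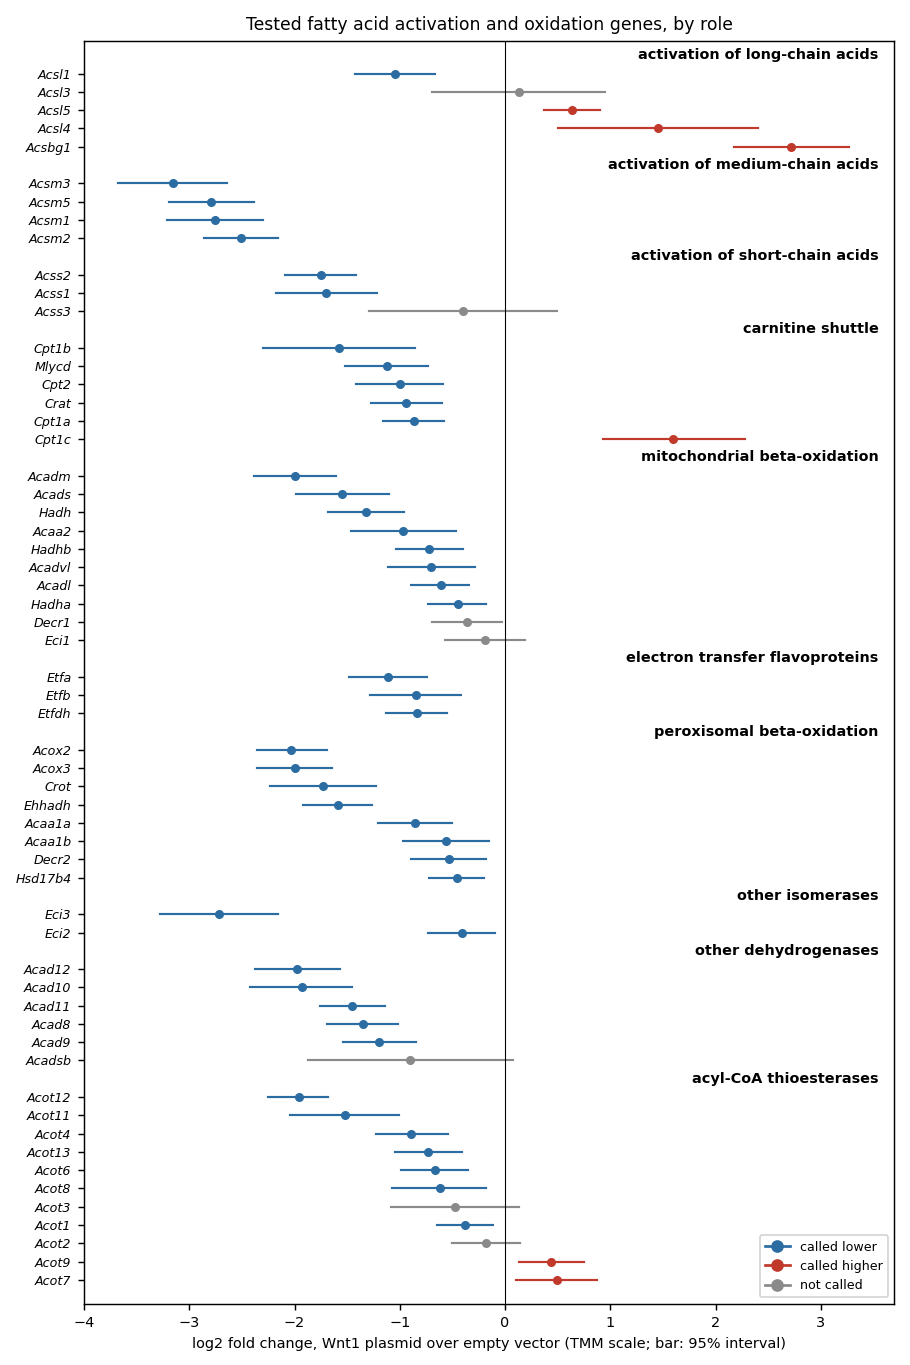
Log2 fold change of 58 of the 59 tested members, Wnt1 plasmid over empty vector on the TMM scale, grouped by role, with 95% intervals from the edgeR fit of 3 against 3 libraries; colours mark the call. All 4 Acsm genes lie between -3.16 and -2.51, while Acsbg1 at 2.72, Cpt1c at 1.60 and Acsl4 at 1.45 lie on the other side; the signs of Acot1, Acot2, Acss3, Decr1 and Eci1 turn, and Eci2 is at 0.00, when libraries are scaled by their totals.

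Among the activating enzymes, the medium-chain family fell furthest and the long-chain family was mixed. Acsm genes encode mitochondrial synthetases for medium-chain acids. They stand in a row on chromosome 7 of GRCm38 in the order Acsm5, Acsm2, Acsm1, Acsm4 and Acsm3, with Acsm5 at chr7:119519463-119545551 and Acsm3 at chr7:119760923-119787513, both on the plus strand. The gaps between neighbours were 8788, 6335, 27510 and 46357 bases. Acsm4 had no count in any library, which allows up to 3 counts per library, a level of at most 0.138 CPM.

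Acsm2, a family member known for its expression in kidney, was the most abundant by count, with 4834, 4830 and 4393 CPM in control and 915, 741 and 814 CPM in Wnt1 libraries. The groups were far apart, with a log2 change of -2.51 ± 0.15 (standard error; edgeR adjusted p = 3.35e-05). Acsm2 alone held 26.16, 24.18 and 22.78% of the members' counts in control and 12.35, 11.73 and 10.77% in Wnt1 libraries. Acsm3 went from 759, 1099 and 825 CPM to 110, 75.3 and 114 CPM, a change of -3.16 ± 0.23 (edgeR adjusted p = 6.19e-05), the lowest value among the members. Its counts were fractional in every library, so reads were shared with other features there. Acsm1 stood at 223, 250 and 280 CPM and then at 32.7, 31.6 and 47.3 CPM, and Acsm5 went from 152, 145 and 150 CPM to 21.7, 17.2 and 25.8 CPM. Their changes were -2.76 and -2.79. No Wnt1 library reached a control library in any of the 4, where 25.3% of all tested genes lay below control in this way. All 4 kept their call in every alternative.

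Start-site sequence is shown for 3 of these neighbours that fell together, from the RefSeq windows of GRCm38.p6, which were found for 55 of the 66 members. Each line is an 80-base stretch before the RefSeq start on the gene's own strand that overlaps no annotated GENCODE exon. Capitals mark TGACCT, the reverse complement of AGGTCA, the core motif bound by nuclear receptors; lines with no capitals hold neither. The stretches lie at chr7:119554260-119554339 for Acsm2, chr7:119617668-119617747 for Acsm1 and chr7:119760843-119760922 for Acsm3, all on the plus strand; that of Acsm1 lies inside the longer GENCODE gene.
Acsm2: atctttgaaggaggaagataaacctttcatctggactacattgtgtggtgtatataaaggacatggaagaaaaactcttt
Acsm1: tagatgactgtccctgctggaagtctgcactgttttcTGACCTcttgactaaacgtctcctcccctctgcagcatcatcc
Acsm3: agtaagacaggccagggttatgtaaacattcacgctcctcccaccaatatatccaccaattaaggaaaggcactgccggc

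Of the long-chain synthetases, Acsl1, the form best known for feeding oxidation, fell while Acsl4, Acsl5 and Acsbg1 rose. Acsl1 had 289, 304 and 224 CPM in control and 150, 130 and 115 CPM in Wnt1 libraries, a log2 change of -1.05 ± 0.16 (edgeR adjusted p = 0.00165). Acsl5 was at 100, 102 and 98.3 CPM and then at 154, 148 and 166 CPM, a rise of 0.64 ± 0.11 (edgeR adjusted p = 0.00297). Acsl4, which prefers polyunsaturated acids such as arachidonic acid, had 37.2, 32.8 and 18.1 CPM in control and 102, 99.4 and 38.7 CPM in Wnt1 libraries. Wnt1 replicate 3 lay just above the highest control library. The change was 1.45 ± 0.41 (edgeR adjusted p = 0.0239), and the call was lost on leaving out any library but Wnt1 replicate 3, though it held with both libraries numbered 3 left out, at 1.52. Acsbg1 was scarce, with 0.828, 0.975 and 1.19 CPM against 5.83, 7.26 and 6.68 CPM, a change of 2.72 ± 0.24 (edgeR adjusted p = 1.23e-04). Acsl3 overlapped between groups, with a 95% interval of -0.69 to 0.95. Acsl6, Acsbg2 and Acsbg3 were too scarce to test, with group means of at most 0.466 CPM.

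Within each library, the ratio of Acsl5 to Acsl1 in FPKM (fragments scaled by transcript length and library total, which sets genes of different length on the same footing) was 0.387, 0.364 and 0.519 in control and 1, 1.05 and 1.41 in Wnt1 libraries. The same ratio for Acsl4 was 0.0933, 0.079 and 0.0599, and then 0.501, 0.555 and 0.247. In both cases the groups did not overlap, and such ratios do not depend on how libraries are scaled. An exact two-sided permutation test of 3 against 3 libraries cannot go below p = 0.1, which both ratios reached. The Benjamini-Hochberg value over the 10 ratios computed was 0.111. All 10 pairs were chosen after values were seen and restate fold changes of the same libraries. Their separation is therefore no separate support.

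Acetate is activated by Acss1 in mitochondria and by Acss2 in cytosol and nucleus, and both fell. Acss2 had 394, 425 and 475 CPM in control and 126, 113 and 144 CPM in Wnt1 libraries, a log2 change of -1.75 ± 0.14 (edgeR adjusted p = 1.04e-04). Acss1 went from 463, 357 and 399 CPM to 143, 90 and 142 CPM, a change of -1.70 ± 0.21 (edgeR adjusted p = 4.93e-04). For Acss3 the groups overlapped, and the interval ran from -1.29 to 0.49.

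In the carnitine shuttle, 5 of 6 genes were called lower and Cpt1c higher, against 18.7% and 22.4% of all tested genes. Cpt1a, the liver-type outer-membrane transferase that sets the pace of mitochondrial entry and is inhibited by malonyl-CoA, had 672, 744 and 717 CPM in control and 390, 352 and 424 CPM in Wnt1 libraries, a log2 change of -0.87 ± 0.13 (edgeR adjusted p = 0.00119). Cpt2, its inner-membrane partner, had 190, 233 and 236 CPM and then 103, 89.6 and 135 CPM, a level 2.01-fold lower (95% interval of the log2 change -1.42 to -0.59, edgeR adjusted p = 0.00314). The Cpt1a to Cpt2 ratio in FPKM was 2, 1.81 and 1.69 in control and 2.08, 2.16 and 1.73 in Wnt1 libraries, and these overlapped (exact permutation p = 0.4). Cpt1b, the muscle-type form, went from 48.1, 55.4 and 54.6 CPM to 19.3, 9.52 and 24.1 CPM, with Wnt1 replicate 2 lowest. Its change was -1.58 ± 0.31 (edgeR adjusted p = 0.00505), on counts that were fractional in all libraries. Skeletal muscle markers summed to at most 0.991 CPM in any library. Crat, which moves acetyl groups onto carnitine, changed by -0.94, and Mlycd, which removes malonyl-CoA, by -1.12 (edgeR adjusted p = 0.00162 and 0.00143). Cpt1c, a form best known from neurons, stood at 1.79, 1.2 and 0.913 CPM in control and at 3.61, 3.82 and 4.44 CPM in Wnt1 libraries, a change of 1.60 ± 0.29 (edgeR adjusted p = 0.00327).

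The mitochondrial spiral itself fell unevenly: 8 of its 10 genes were called lower, against 18.7% of all tested genes. The median log2 fold change of the 10 was -0.71. The acyl-CoA dehydrogenases open each round and differ in chain length. Acadm, the medium-chain enzyme, had 801, 1077 and 855 CPM in control and 259, 202 and 223 CPM in Wnt1 libraries, a log2 change of -2.00 ± 0.17 (edgeR adjusted p = 1.10e-04). Acads, the short-chain enzyme, went from 273, 292 and 343 CPM to 90.8, 87.1 and 133 CPM, a change of -1.55 ± 0.19 (edgeR adjusted p = 5.63e-04). Acadl and Acadvl, the long-chain and very-long-chain enzymes, also lay lower in every Wnt1 library, but by less. Acadl had 294, 342 and 333 CPM and then 222, 205 and 207 CPM, with a change of -0.61 ± 0.12 (edgeR adjusted p = 0.00466). Acadvl had 377, 385 and 462 CPM and then 243, 203 and 306 CPM, with a change of -0.70 ± 0.18 (edgeR adjusted p = 0.0145), a call lost without Wnt1 replicate 1. Scaled by library totals, Acadl at -0.19 and Acadvl at -0.29 missed the threshold (edgeR adjusted p = 0.157 and 0.146).

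The same unequal falls can be written as ratios inside each library, for pairs chosen after their values were seen. In FPKM, Acadm stood at 2.55, 2.96 and 2.4 times Acadl in control libraries and at 1.1, 0.926 and 1.01 times in Wnt1 libraries. Acads stood at 0.952, 0.876 and 1.05 times Acadl, and then at 0.419, 0.436 and 0.658 times. Both sets of ratios were apart, at the smallest exact permutation p of 0.1.

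Of the later steps, Hadh fell furthest. It encodes the short-chain hydroxyacyl-CoA dehydrogenase of the third step and had 628, 632 and 686 CPM in control and 263, 212 and 304 CPM in Wnt1 libraries, a log2 change of -1.32 ± 0.16 (edgeR adjusted p = 4.49e-04). Hadha and Hadhb encode the subunits of the trifunctional protein, which handles long chains, and lie head to head on chromosome 5, 85 bases apart. Hadha had 290, 294 and 307 CPM and then 219, 197 and 235 CPM, a change of -0.45 ± 0.12 (edgeR adjusted p = 0.0178). Hadhb had 297, 274 and 320 CPM and then 187, 156 and 198 CPM, a change of -0.72 ± 0.14 (edgeR adjusted p = 0.0042). Scaled by library totals, neither was called, at -0.04 for Hadha and -0.30 for Hadhb, and the call of Hadha was lost on leaving out any library but Wnt1 replicate 3. Hadh stood at 4.86, 4.83 and 5.02 times Hadha in FPKM in control and at 2.7, 2.42 and 2.9 times in Wnt1 libraries, so the short-chain gene lost ground to the trifunctional subunit in each. Acaa2, the mitochondrial thiolase, had 291, 256 and 291 CPM and then 141, 101 and 186 CPM, a change of -0.97 ± 0.21 (edgeR adjusted p = 0.00817).

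The auxiliary enzymes for unsaturated acids, Decr1 and Eci1, were not called. Decr1 was lower in every Wnt1 library, at 216, 248 and 232 CPM against 196, 152 and 195 CPM, with a 95% interval of -0.69 to -0.03 (edgeR adjusted p = 0.0781). Eci1 overlapped, at 77.8, 81.3 and 85.3 CPM against 71, 57.5 and 86 CPM, with an interval of -0.57 to 0.19. With both libraries numbered 3 left out, both were called lower, at -0.42 and -0.31 (edgeR adjusted p = 0.0299 and 0.0377), and scaled by library totals both had a positive sign, at 0.06 and 0.23. The related isomerase genes Eci2 and Eci3 lie 13937 bases apart on chromosome 13 and moved unequally. Eci3 had 213, 273 and 270 CPM in control and 37.4, 27 and 50.5 CPM in Wnt1 libraries, a change of -2.72 ± 0.24 (edgeR adjusted p = 1.41e-04). Eci2 had 116, 133 and 134 CPM and then 93.1, 85.7 and 109 CPM, a change of -0.41 ± 0.14 (edgeR adjusted p = 0.0435) that was 0.00 with library totals and lost its call on leaving out any library but Wnt1 replicate 3. The Eci3 to Eci2 ratio in FPKM was 1.85, 2.08 and 2.06 in control and 0.401, 0.318 and 0.468 in Wnt1 libraries, so the order of the 2 genes turned over; both had fractional counts in 2 libraries.

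All 3 genes of the electron transfer step were called lower, against 18.7% of all tested genes. Etfa and Etfb, the subunits of the flavoprotein, changed by -1.11 ± 0.16 and -0.85 ± 0.19 (edgeR adjusted p = 0.00116 and 0.00794). Etfdh, which hands the electrons to ubiquinone, had 188, 198 and 176 CPM in control and 115, 103 and 95.8 CPM in Wnt1 libraries, a log2 change of -0.84 ± 0.13 (edgeR adjusted p = 0.00131). Every Wnt1 library lay below every control library in all 3 genes, as in 25.3% of all tested genes. Etfb missed the threshold with library totals (edgeR adjusted p = 0.0559).

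**Figure D2:**
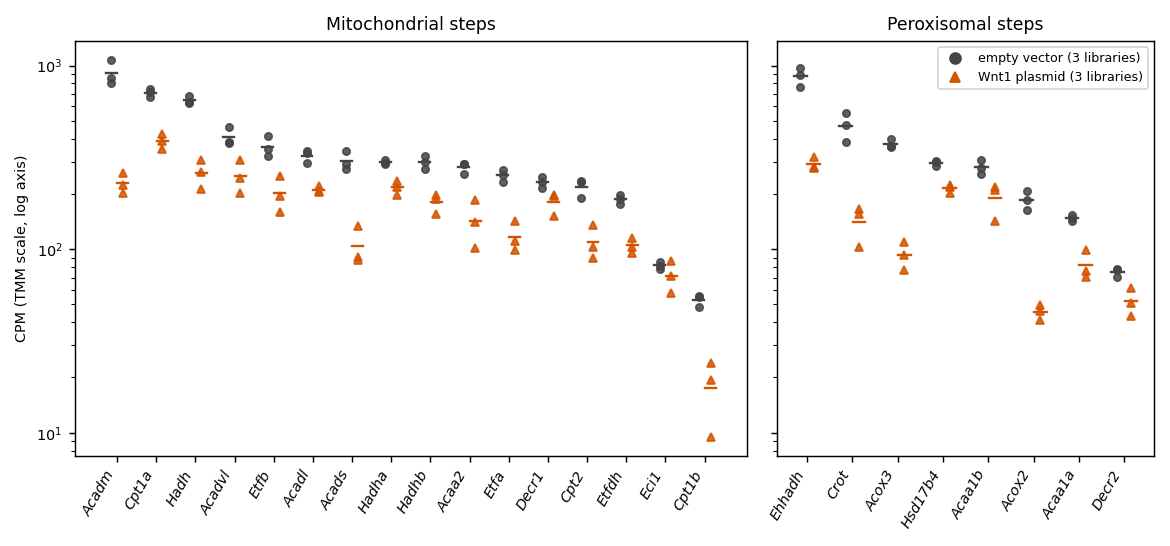
CPM on the TMM scale (log axis) of the 16 mitochondrial genes, carnitine transferases and flavoprotein included, and 8 of the 9 peroxisomal genes in each library, ordered by control level; bars are means of 3 libraries. In Acadm the 3 Wnt1 libraries lie at 202 to 259 against 801 to 1077 in control, and in Eci1 the groups overlap.

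In the peroxisome all 9 genes were called lower, against 18.7% of all tested genes. Their median log2 fold change was -1.49. The oxidases catalyse the first step, and those of branched chains are Acox2 and Acox3. Acox2 went from 164, 207 and 186 CPM to 49.6, 41.1 and 45.9 CPM, a change of -2.03 ± 0.14 (edgeR adjusted p = 6.19e-05). Acox3 went from 358, 365 and 397 CPM to 93, 77.4 and 110 CPM, a change of -2.00 ± 0.16 (edgeR adjusted p = 8.51e-05).

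The 2 bifunctional enzymes, which catalyse the middle steps, moved unequally. Ehhadh, the L-bifunctional enzyme, had 764, 975 and 893 CPM in control and 317, 276 and 281 CPM in Wnt1 libraries, a log2 change of -1.59 ± 0.14 (edgeR adjusted p = 1.40e-04). Hsd17b4, the D-bifunctional enzyme, had 284, 302 and 300 CPM and then 219, 203 and 224 CPM, a change of -0.46 ± 0.11 (edgeR adjusted p = 0.0131). With library totals Hsd17b4 was at -0.04 and was not called, and its call was also lost without control replicate 2 or control replicate 3. Ehhadh stood at 2.42, 2.91 and 2.68 times Hsd17b4 in FPKM in control and at 1.31, 1.22 and 1.13 times in Wnt1 libraries, apart at the smallest exact permutation p of 0.1. Crot, which prepares shortened chains for export to mitochondria, had 473, 549 and 383 CPM and then 165, 156 and 103 CPM, a change of -1.73 ± 0.22 (edgeR adjusted p = 5.80e-04).

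The thiolases Acaa1a and Acaa1b and the reductase Decr2 fell by less. Acaa1a changed by -0.86 ± 0.15, Acaa1b by -0.56 ± 0.18 and Decr2 by -0.53 ± 0.15 (edgeR adjusted p = 0.0031, 0.0363 and 0.0255). Both thiolase genes had fractional counts in all libraries, and their split may carry counting error of its own. The calls of Acaa1b and Decr2 were not kept with library totals, at -0.15 and -0.12, nor without any of 5 single libraries for Acaa1b (all but Wnt1 replicate 3) and any of 4 for Decr2 (control replicates 2 and 3, Wnt1 replicates 1 and 2).

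Set side by side, the peroxisomal genes had the lower median, -1.49 against -0.86 for the 16 mitochondrial genes, of which 14 were called lower. On this TMM scale 18.7% of all tested genes were called lower and 22.4% higher. Library totals gave medians of -1.07 and -0.44, with 6 of 9 and 9 of 16 called lower, against 8.92% of all tested genes. The mitochondrial genes summed to 2391, 2567 and 2585 FPKM in control and 1702, 1456 and 1819 FPKM in Wnt1 libraries, and the peroxisomal genes to 1161, 1306 and 1277 and then 723, 634 and 713 FPKM. Their ratio was 2.06, 1.96 and 2.03 in control and 2.36, 2.30 and 2.55 in Wnt1 libraries, so the Wnt1 libraries lay higher in each. An exact test of 3 against 3 libraries cannot go below p = 0.1. The ratio kept this order without Acadm, at 1.76, 1.62 and 1.75 against 2.15, 2.11 and 2.38. The gap in medians went away on the TMM scale when thioesterases of each compartment were added. The 19 tested mitochondrial genes then had a median of -0.84 and 13 peroxisomal genes -0.86. Of these, 15 and 12 were called lower, against 18.7% of all tested genes, and 1 mitochondrial gene, Acot9, was called higher.

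**Figure D3:**
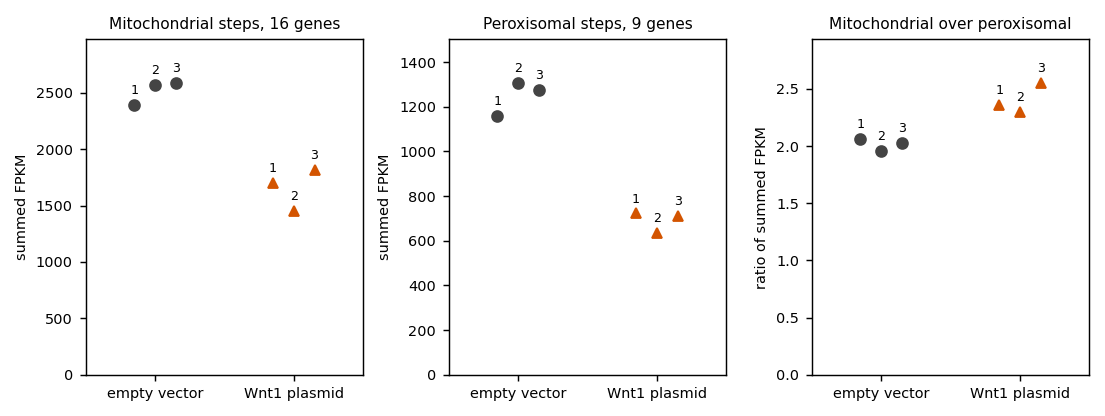
Summed FPKM of the 16 mitochondrial genes, of the 9 peroxisomal genes, and the ratio of the sums, 1 point per library numbered by replicate, axes from 0. Both sums are lower in every Wnt1 library, and the ratio is 1.96 to 2.06 in control and 2.30 to 2.55 in Wnt1 libraries.

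Of the other acyl-CoA dehydrogenases, 5 of 6 tested were called lower, with no call higher. Among all tested genes the shares were 18.7% lower and 22.4% higher. Acad11 had 346, 335 and 302 CPM in control and 136, 116 and 109 CPM in Wnt1 libraries, a log2 change of -1.45 ± 0.13 (edgeR adjusted p = 1.60e-04). Acad10 and Acad12, neighbours 2087 bases apart on chromosome 5, changed by -1.93 and -1.98 on counts that were fractional in all libraries. Acad8, the isobutyryl-CoA dehydrogenase of valine breakdown, changed by -1.35 ± 0.14, and Acad9, also a complex I assembly factor, by -1.20 ± 0.15 (edgeR adjusted p = 2.83e-04 and 5.48e-04). Acadsb, of isoleucine breakdown, had 141, 129 and 65.8 CPM and then 79.9, 72.5 and 28.3 CPM. Its groups overlapped through control replicate 3, and it was not called (-0.90, interval -1.87 to 0.08, edgeR adjusted p = 0.129), but without both libraries numbered 3 it was, at -0.83 (edgeR adjusted p = 1.63e-04). Acoxl was too scarce to test, at a mean of 0.107 CPM in control and 0.0827 CPM in Wnt1 libraries.

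Thioesterases, which release the free acid from coenzyme A, were called lower in 7 of 11 tested and higher in 2. Among all tested genes 18.7% were called lower and 22.4% higher. Acot12, a cytosolic enzyme that acts on acetyl-CoA, had 176, 203 and 185 CPM in control and 51.1, 47 and 46.4 CPM in Wnt1 libraries, a log2 change of -1.96 ± 0.12 (edgeR adjusted p = 3.93e-05). Acot11 changed by -1.52 and Acot4 by -0.89 (edgeR adjusted p = 0.00121 and 0.00245), and both stayed called with library totals. Acot13 at -0.73 and Acot6 at -0.67 did not (edgeR adjusted p = 0.0622 and 0.152 with library totals, 0.00405 and 0.00632 on the TMM scale). The remaining called members, Acot8 at -0.62 and Acot1 at -0.38, were named after their values were seen; neither was called with library totals, where Acot1 was at 0.04. Acot9, a mitochondrial form, had 45.2, 44.3 and 53.8 CPM and then 68.5, 60.6 and 65.3 CPM, a rise of 0.44 ± 0.13 (edgeR adjusted p = 0.03). Acot7 had 16.2, 18.5 and 20.6 CPM and then 22.7, 24.5 and 30.4 CPM, a rise of 0.49 ± 0.17 (edgeR adjusted p = 0.0487). The call of Acot7 was lost with DESeq2, with median-ratio factors and on leaving out any library but control replicate 3, and that of Acot9 without control replicate 1 or 2 or Wnt1 replicate 1.

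On chromosome 12, 6 of these genes stand in a row, in the order Acot2, Acot1, Acot4, Acot3, Acot5 and Acot6, and all 6 had fractional counts in at least 1 library. On the TMM scale Acot4, Acot6 and Acot1 were called lower, and Acot2 (interval -0.50 to 0.14) and Acot3 (interval -1.08 to 0.13) were not. With both libraries numbered 3 left out, Acot3 was called lower too, at -0.62 (edgeR adjusted p = 0.00895). Acot5 averaged 0.136 CPM in control and 0.0818 CPM in Wnt1 libraries and was not tested. Acot10 had no count in any library.

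The libraries numbered 3 touched a few members strongly. In 4 of the 59, both libraries numbered 3 lay more than 0.5 below the mean of replicates 1 and 2 of their group in log2 CPM. These were Acadsb (-1.03 in control, -1.41 in Wnt1), Acsl4 (-0.93 and -1.37), Acss3 (-0.80 and -1.21) and Acsl3 (-0.69 and -1.20), and the GC content of their longest transcripts was 42.7, 39, 40.5 and 43.2%. The other 55 spanned -0.84 to 0.37 in control and -0.64 to 0.81 in Wnt1. Hadhb, whose longest transcript has a GC content of 39.1%, stood at 0.16 and 0.21. In control replicate 1, Hadhb had 6469 counts and 129 FPKM, and Hadha 6313 counts and 63.5 FPKM. Their longest transcripts have 4388 and 4017 bases, so the FPKM of Hadhb rest on a shorter transcript. Its GC value may thus not be that of the transcript measured. With an offset for GC content in each library, Acadsb at -1.04 and Acss3 at -0.65 were called lower, where on the TMM scale alone they were not.

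**Figure D4:**
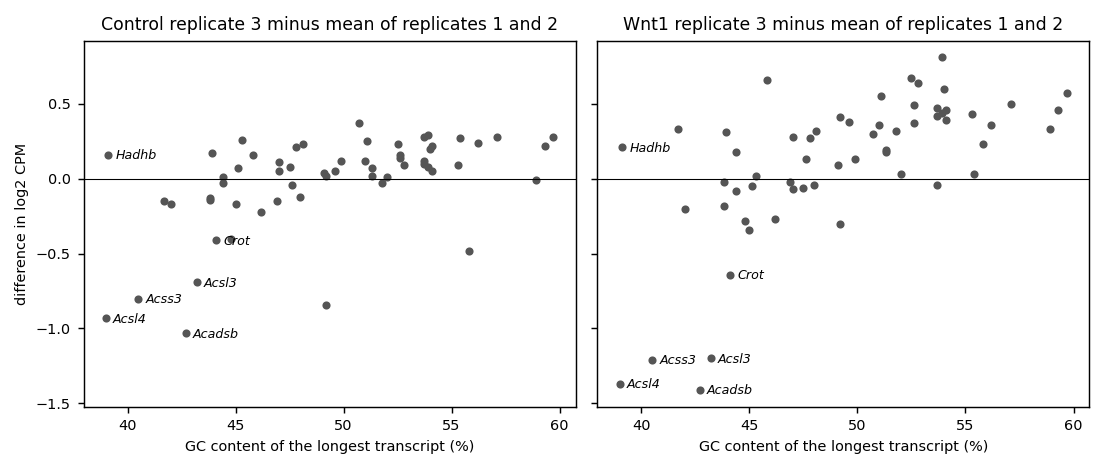
Difference in log2 CPM between replicate 3 and the mean of replicates 1 and 2 of its group for the 59 tested members, against GC content of the longest transcript. Acadsb, Acsl4, Acss3 and Acsl3 lie lowest in the Wnt1 panel at -1.20 to -1.41. Hadhb lies at 0.21 and is drawn at 39.1%, which may not be the GC content of the transcript measured.

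Start-site windows of the members were searched on both strands for AGGTCA, from 250 bases before to 50 after the RefSeq start. It occurred in 10 of 55 members, 18.2%, and in 18.1% of all 27025 genes with a window, so the members did not hold it more often than genes at large. They were Acadm, Acadvl, Acot12, Acot3, Acot4, Acot5, Acsl6, Acsm1, Cpt1a and Cpt1c, and they include members that fell, rose, were not called and were not tested. The direct repeat with a single base between, AGGNCANAGGNCA, the form bound by PPAR with RXR, occurred in 0 of 55 members and 0.451% of all genes. At so low a share, no hit among 55 members is the likely outcome, so it does not set the members apart. Sequence outside the window was not searched. CCAAT occurred in 33 members (60% against 41.1% of genes), GGGCGG in 33 (60% against 38.2%) and TATAAA in 4 (7.27% against 15.7%). These are descriptions of letters in a short window and show no binding. The stretches that hold AGGTCA or its reverse complement (capitals) are given for the dehydrogenases Acadm and Acadvl and for Cpt1a and Cpt1c, transferases that moved in opposite directions. They lie at chr3:153944814-153944893 (minus strand), chr11:70015473-70015552 (minus strand), chr19:3323170-3323249 (plus strand) and chr7:44974955-44975034 (minus strand) of GRCm38.p6. None overlaps an annotated exon, and that of Cpt1a lies inside the GENCODE gene.
Acadm: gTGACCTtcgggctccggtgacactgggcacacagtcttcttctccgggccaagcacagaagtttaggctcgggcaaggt
Acadvl: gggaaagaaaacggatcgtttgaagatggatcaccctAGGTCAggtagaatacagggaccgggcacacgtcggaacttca
Cpt1a: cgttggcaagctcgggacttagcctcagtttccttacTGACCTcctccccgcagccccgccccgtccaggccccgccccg
Cpt1c: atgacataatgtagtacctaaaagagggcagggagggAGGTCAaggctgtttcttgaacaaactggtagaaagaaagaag

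Genes around the pathway were read from 3 lists. Of 16 further enzymes of beta-oxidation, alpha-oxidation and ketone synthesis, 15 were called lower and none higher, against 18.7% and 22.4% of all tested genes. Their median log2 fold change was -1.31. With library totals 11 were called lower and 1 higher, against 8.92% and 44.0% of all tested genes, and the median was -0.89. Those with the smallest p were Acat1, the mitochondrial acetoacetyl-CoA thiolase (-1.96), Pcca, a propionyl-CoA carboxylase subunit (-1.37), Phyh, which starts alpha-oxidation of phytanic acid (-1.55), Amacr, the racemase of branched acids (-2.57), and Bdh1 (-1.79). Echs1, the mitochondrial enoyl-CoA hydratase that acts between Acads and Hadh, fell by 1.14 on the log2 scale.

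Of 14 tested genes of uptake, binding and transport, 5 were called lower and 3 higher, against 18.7% and 22.4% of all tested genes. Library totals gave 4 and 4, against 8.92% and 44.0%, and leaving out both libraries numbered 3 gave 8 and 3, against 30.4% and 32.0%. Slc27a2, a fatty acid transport protein that also activates very long chains, had 4088, 4620 and 5017 CPM in control and 1245, 1228 and 1167 CPM in Wnt1 libraries, a log2 fold change of -1.91. Cd36, a fatty acid translocase, changed by -1.59 and Slc22a5, the plasma membrane carnitine transporter, by -1.29. Fabp1 rose by 2.38 from 0.272 to 1.43 CPM on average, and Fabp5 by 0.85. The remaining called genes, Fabp3 at -1.29, Fabp4 at -0.44 and the peroxisomal transporter Abcd2 at 2.57, were named after their values were seen. Fabp4 was not called with library totals (-0.02, edgeR adjusted p = 0.897) or with the GC offset (-0.53, edgeR adjusted p = 0.112). Slc25a20, the carnitine carrier of the inner mitochondrial membrane between Cpt1a and Cpt2, overlapped between groups, at 58.1, 69.3 and 74.3 CPM against 61.4, 50.1 and 71.9 CPM (-0.14, edgeR adjusted p = 0.556).

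Of 21 regulators and related genes, 8 were called lower and 3 higher on the TMM scale, where 18.7% of all tested genes were lower and 22.4% higher. With library totals 4 were lower and 6 higher, against 8.92% and 44.0% of all genes, and without both libraries numbered 3 the counts were 11 and 6, against 30.4% and 32.0%. Hnf4a, a transcription factor of the proximal tubule, had 1122, 1130 and 1286 CPM in control and 517, 462 and 533 CPM in Wnt1 libraries (-1.23, edgeR adjusted p = 2.80e-04). Sirt3, the mitochondrial deacetylase, changed by -1.47, Acacb, which makes malonyl-CoA at the mitochondrial surface, by -1.19, and Esrra by -0.99. Ppara, the receptor best known for driving these genes, had 56.7, 39.3 and 40.2 CPM and then 30.7, 22.3 and 19.9 CPM (-0.90, edgeR adjusted p = 0.012). That call was lost with library totals, at -0.48 (edgeR adjusted p = 0.111). Ppargc1a, its coactivator, overlapped and was not called (-0.52, edgeR adjusted p = 0.293). It was called lower without both libraries numbered 3, at -0.47 (edgeR adjusted p = 0.00474), and with the GC offset, at -0.70 (edgeR adjusted p = 0.0178). Pdk4, which diverts pyruvate from oxidation and is a known PPAR target, went from 15.2, 14.8 and 23.1 CPM to 54.9, 43.6 and 36.5 CPM, a rise of 1.35 (edgeR adjusted p = 0.00238). The other genes called higher, Plin2 at 0.81 and Prkab2 at 0.76, were named after their values were seen. So were the remaining genes called lower, Rxra at -0.80, Ppargc1b at -0.81 and Sirt5 at -0.47. With library totals Rxra, Ppargc1b and Sirt5 were not called (edgeR adjusted p = 0.0626, 0.179 and 0.747).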

How the data were processed

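Kidney RNA of 6 libraries was analysed from the authors' deposited table, with no other sample's column in use. The authors deposited an expected count per gene and library (estimated reads, which need not be whole) and an FPKM value. The tools named for the mm10 build, per the submitters' processing notes, were RSEM, HISAT2, StringTie 1.3.1, fastp 0.18.0 and Bowtie2 2.2.8; for their roles, the annotation release and strand use, nothing is given in the sources used here. Of all counts, 9.02% were not whole within 1e-06, and 20 members had such a count in some library; counts were rounded.

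Genes passing filterByExpr were compared with edgeR 4.0.16 in R 4.3.3 (TMM, robust quasi-likelihood test, two-sided, Benjamini-Hochberg over 14432 genes, threshold 0.05); standard errors and 95% intervals derive from that fit. When the test was checked on simulated data, the share of false calls came out above the nominal threshold. CPM are TMM-scaled counts. FPKM ratios were compared with exact permutation tests in scipy 1.17.1. Identifiers were matched to GENCODE M21 on GRCm38 (22128 genes). A count of 0 is read against a floor of 3 counts per library; such limits cover counting error only.

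Members of the mitochondrial and peroxisomal steps are named whatever their values; some genes that the rule took are counted but not reported here. In other roles these are at most 6 called members, taken by p, those moving against their role, and uncalled or untested ones; from each pathway list up to 5 called members and 7 set genes were eligible. Members, lists and cell markers were chosen with earlier results of these data known, and ratio pairs and motifs after seeing values. Alternatives were DESeq2 1.42.0, median-ratio factors, library totals, no filter, a stricter filter (all 3 libraries of either group at 1 CPM or more), limma 3.58.1 on log2(FPKM + 1) and log2(FPKM + 0.1) with FPKM of at least 1 in 3 libraries or none, a GC offset, leaving out each library or both numbered 3, and a wider compartment list.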

Additional observations from a re-analysis of the deposited data

How the results depend on the processing

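No paired analysis was possible because replicate numbers follow the order of the records and pair nothing. Members called lower numbered 46, and 31 to 50 over the alternatives (39 to 48 leaving out each library). Members called higher numbered 6, and 3 to 7 over the alternatives (3 to 5 leaving out each library). The count was 3 without control replicate 1, control replicate 2 or Wnt1 replicate 1. It was 7 with limma on log2(FPKM + 1) with no filter. Mitochondrial genes called lower numbered 14, but 9 with library totals and 8 with limma on log2(FPKM + 1) with no filter. Peroxisomal genes called lower numbered 9, and 6 to 9 over the alternatives with that list. With no filter on counts, Acot1 and Eci2 lost their call. With library totals 13 members lost a lower call and none a higher one. The signs of these members turned with library totals, limma on log2(FPKM + 1), on log2(FPKM + 0.1) and on log2(FPKM + 1) with no filter, in that order: Acot1 0.04, 0.02, 0.02 and 0.02, Acot2 0.24, 0.23, 0.24 and 0.23, Decr1 0.06, 0.05, 0.05 and 0.05, and Eci1 0.23, 0.21, 0.21 and 0.21. Eci2 was at 0.00 in all 4, and Acss3 at 0.03, 0.01 and 0.01 in all but log2(FPKM + 0.1). None of these settings carries a composition factor. Leaving out each library, Acsl3 ranged from -0.11 (without Wnt1 replicate 2) to 0.43 (without Wnt1 replicate 3), with -0.01 without Wnt1 replicate 1. With library totals Acsl3 was at 0.55. The cause was not tested. The GC offset left Hadhb uncalled (-0.92, edgeR adjusted p = 0.0775, against 4.43e-05 to 0.0775 over its alternatives). That offset used the GC content of its longest transcript, which may not be the one measured. Fits that leave out a library assume that the remaining libraries vary alike. Depth limits the 7 untested members, whose group means were at most 0.466 CPM.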
